A study of Arabidopsis thaliana with 12 samples.

Results

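IAA31, AT1G01250 and SPL (SPOROCYTELESS, locus AT4G27330) are regulators of transcription in Arabidopsis thaliana whose array signal was lower in plants brought back to light after darkness than in light-adapted plants. They were taken as the features that the platform annotation pairs with exactly 1 gene, that gene being one of these, which gave 3 features of 3439 on the array. The array holds 692 features with exactly 1 gene. The genes were chosen by their intensities in this same contrast, for being lower in recovery. Their levels and differences between the groups are therefore given as a description and carry no test.

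Both groups were wild type of the ecotype Columbia 0, with no transgene or mutation named in the labels. Light-adapted plants made up 6 samples, and the 6 recovery samples came from plants kept dark for 1 h and then put back in light, for 2 h by the titles and for 1 h by the source names. The end of the dark hour itself was not sampled, and the labels give neither plant age nor tissue, nor whether the arrays of a group came from separate plants, so the spread between arrays may be technical. Each sample was measured on 1 array, in intensity units that run from 0 to 100 and were taken as linear.

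Aux/IAA proteins such as IAA31 (AT3G17600) bind auxin response factors at auxin-responsive genes and hold those genes down together with corepressors of the TOPLESS family. Auxin lifts the block for most of the family by marking the repressor for destruction, and IAA31 belongs to a small subgroup in which the destruction signal is absent or incomplete. AT1G01250 encodes a factor of the AP2/ERF family, plant DNA-binding proteins with roles in development and in responses to stress and hormones. SPL, also called NOZZLE, is a repressor needed to start spore-forming cells in anthers and ovules, and it is a different gene from the SQUAMOSA promoter-binding protein-like genes that share its abbreviation.

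Array-wide levels differed between the groups. The median intensity of an array ran from 0.0710 to 0.103 in light-adapted plants and from 0.0358 to 0.0400 in recovery, while summed intensity covered a like range in both, 2286 to 3265 and 2288 to 3314. Arrays 1 and 2, 3 and 4, and 5 and 6 of a group had like sums. They were 2557 and 2559, 3233 and 3265, and 2286 and 2316 in light-adapted plants. In recovery they were 2539 and 2593, 3314 and 3287, and 2288 and 2309. Whether such arrays are separate samples is not known. Exact zeros made up 17.9% to 22.2% of the features on light-adapted arrays and 23.3% to 28.6% on recovery arrays. Of 7 green-leaf markers, 4 had a feature with 1 gene, and each was above 0 on all 12 arrays. Their summed intensity ran from 49.3 to 82.8 in light-adapted plants and from 76.5 to 129.5 in recovery, but the markers did not move together. The mean intensity was 17.8 in light-adapted plants and 65.6 in recovery for PSBW, 39.7 and 24.3 for LHB1B2, 4.60 and 1.68 for PRK, and 6.55 and 6.85 for PSAN. The part of such shifts in the differences below was not tested. None of the 9 flower markers and 6 root markers had a feature with 1 gene, so the share of those organs could not be checked.

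IAA31 was bright in every light-adapted array and close to the middle of the array in every recovery array. Its deposited intensity in light-adapted plants was lowest at 1.49, had a median of 1.90 and was highest at 2.21, and in recovery it was lowest at 0.0451, had a median of 0.0526 and was highest at 0.0782. The groups did not overlap, and the lowest light-adapted value was 19.0 times the highest recovery value. In total RNA of plants, fewer cells with a transcript and less of it per cell cannot be told apart.

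**Figure D1:**
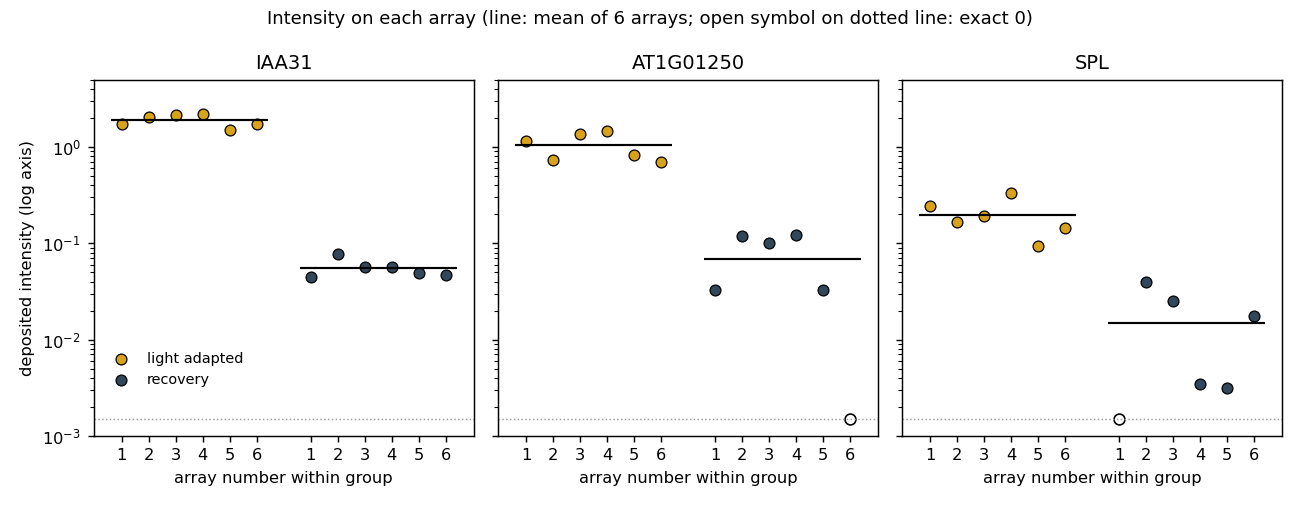
Deposited intensity of IAA31, AT1G01250 and SPL on each of the 6 light-adapted and 6 recovery arrays, on a log axis, with the mean of 6 arrays as a line and exact zeros as open symbols on the dotted line. All light-adapted points lie above all recovery points of the same gene, IAA31 has no zero, and AT1G01250 and SPL have 1 zero each, on different recovery arrays.

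AT1G01250 was also far lower in recovery, with more scatter between arrays. Its light-adapted intensities had a lowest value of 0.699, a median of 0.994 and a highest value of 1.46. Its recovery intensities were uneven, with arrays 2, 3 and 4 at 0.120, 0.0996 and 0.123, arrays 1 and 5 at 0.0328 and 0.0330, and array 6 at 0. The groups did not overlap, and the lowest light-adapted value was 5.67 times the highest recovery value.

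SPL had a modest signal in light-adapted plants and came close to 0 in recovery. Its light-adapted intensities ran from 0.0942 to 0.336 with a median of 0.177. In recovery, arrays 2, 3 and 6 were at 0.0399, 0.0251 and 0.0174, arrays 4 and 5 at 0.00342 and 0.00310, and array 1 at 0. The groups again did not overlap, but the gap was narrow, with the lowest light-adapted value 2.36 times the highest recovery value.

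Separation of this kind was common on the array. Every light-adapted value lay above every recovery value for 21.1% of the 2364 features with at least 4 values above 0 in each group, and for 13.1% of them after quantile normalization, which gives all arrays the same distribution of values. The fit across all features in limma called 18.4% lower in recovery, taking adjusted p-values below 0.05. All 3 regulators passed the filter and were separated on both scales, which follows from how they were picked and is not read as a result.

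The same-numbered arrays of the groups were also set against each other pair by pair. How many of all features were lower in 6 of 6 pairs was not computed, so counts of pairs are given as a description only. IAA31 was lower in recovery in 6 of 6 pairs, and its light-adapted intensity was 38.4, 26.2, 38.3, 39.2, 30.4 and 37.4 times the recovery intensity in pairs 1 to 6. The size of the difference was therefore alike across pairs, with pair 2 the smallest. AT1G01250 was lower in 6 of 6 pairs, by 35.5, 6.20, 13.6, 11.8 and 25 times in pairs 1 to 5, and recovery array 6 is listed at 0, so pair 6 has no ratio. SPL was lower in 6 of 6 pairs as well, by 4.12, 7.58, 98.1, 30.4 and 8.26 times in pairs 2 to 6, and recovery array 1 is listed at 0. The ratios of SPL in pairs 4 and 5 rest on recovery intensities near 0, so their size is uncertain. Among the pairs with a ratio, pair 2 gave the smallest for each gene.

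On the log2 scale, with zeros set to missing and the arrays quantile normalized, the mean difference within pairs, recovery minus light adapted, was -4.59 ± 0.210 for IAA31 (SD, n = 6 pairs). It was -3.43 ± 0.993 for AT1G01250 and -2.89 ± 1.83 for SPL (SD, n = 5 pairs each). Over the pairs with a value, the spread was thus smallest for IAA31 and largest for SPL, whose pairs ran from -5.54 to -0.97. The order of AT1G01250 and SPL depended on leaving out the pair with a zero. With zeros kept and a pseudocount of 0.01, the SD over 6 pairs was 0.201 for IAA31, 1.496 for AT1G01250 and 1.313 for SPL. Pair 6 of AT1G01250, with its zero, was at -6.17 there. On the deposited scale, with zeros missing and no normalization, the means were -5.11 ± 0.238 for IAA31, -3.95 ± 0.980 for AT1G01250 and -3.91 ± 1.84 for SPL. After each array was centred on its median they were -4.12 ± 0.281, -2.92 ± 1.02 and -2.94 ± 1.87 in that order. Averaged over arrays 1 and 2, 3 and 4, and 5 and 6, IAA31 was at 1.89, 2.18 and 1.62 in light-adapted plants and at 0.0617, 0.0562 and 0.0478 in recovery, and SPL was at 0.206, 0.263 and 0.119 and at 0.0200, 0.0143 and 0.0102. AT1G01250 was at 0.953, 1.41 and 0.761 in light-adapted plants and less evenly at 0.0762, 0.111 and 0.0165 in recovery. The sign was negative in every pair with a value on all these scales.

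**Figure D2:**
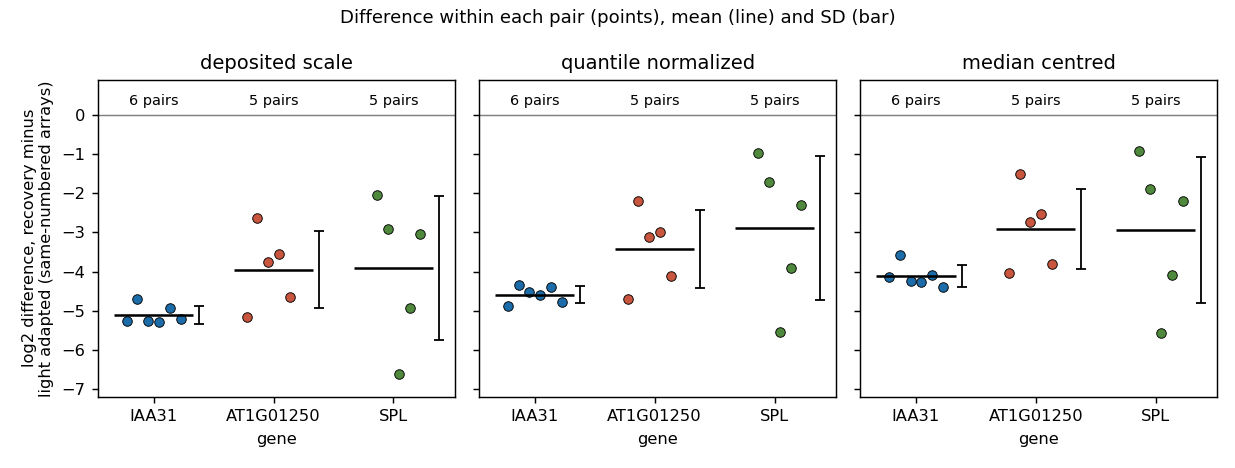
Log2 difference, recovery minus light adapted, within each same-numbered pair of arrays for IAA31 (6 pairs), AT1G01250 and SPL (5 pairs each, the pair with a zero left out), on the deposited, quantile-normalized and median-centred scales. Lines are means and bars are SD. The IAA31 pairs lie close together on each scale, while those of SPL run from -5.54 to -0.97 after quantile normalization.

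The scaling matters because the whole array moved with it. Over the 2364 features, the median log2 difference was -0.04 after quantile normalization, -0.82 without normalization and 0.19 after median centring. The calls of limma moved too, from 438 higher and 435 lower to 226 and 870 without normalization and 646 and 323 after median centring. The shift also depended on brightness. Among fitted features whose light-adapted mean lay within 2-fold of that of SPL, 993 in number, the median difference on the deposited scale was -1.22. The fit by group, without pairing, gave -4.0 for SPL. Among the 204 such features around IAA31 the median was -0.65, against -5.11 for IAA31, and among the 314 around AT1G01250 it was -0.67, against -3.85. Zeros were missing in the fit, so AT1G01250 and SPL entered it with 5 recovery arrays each and IAA31 with 6. After quantile normalization the medians around IAA31, AT1G01250 and SPL were -0.56, -0.49 and -0.29, and the fitted differences of the regulators were -4.59 ± 0.197, -3.35 ± 0.368 and -3.0 ± 0.657 (SE).

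The zeros were also set against features of a like level. At least 1 recovery array was at 0 for 36.8% of the 1128 features around SPL, whose own count was 1 zero in recovery and 0 in light-adapted plants. For AT1G01250, which had the same counts, the share was 10.2% of 324 features. IAA31 had 0 zeros in either group, and 4.85% of the 206 features around it had a zero in recovery.

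A measure that needs no scaling is the share of the other features that lie below a gene on the same array. IAA31 lay above 95.0% ± 0.539 of them in light-adapted plants and above 57.9% ± 4.56 in recovery (SD, n = 6 arrays each). For AT1G01250 the shares were 91.5% ± 1.37 and 51.2% ± 27.7, and on the recovery arrays they ran from 0% on the array with the zero to 73.5%. For SPL they were 66.5% ± 7.03 and 31.2% ± 18.0. The groups did not overlap by this measure for any of the 3 genes, which follows from how they were picked and is not read as a result. SPL came nearest to overlap, with a lowest light-adapted share of 56.6% and a highest recovery share of 51.7%. How many of all features were separated by this measure was not computed. The part separated was 21.1% on the deposited scale and 13.1% after quantile normalization.

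**Figure D3:**
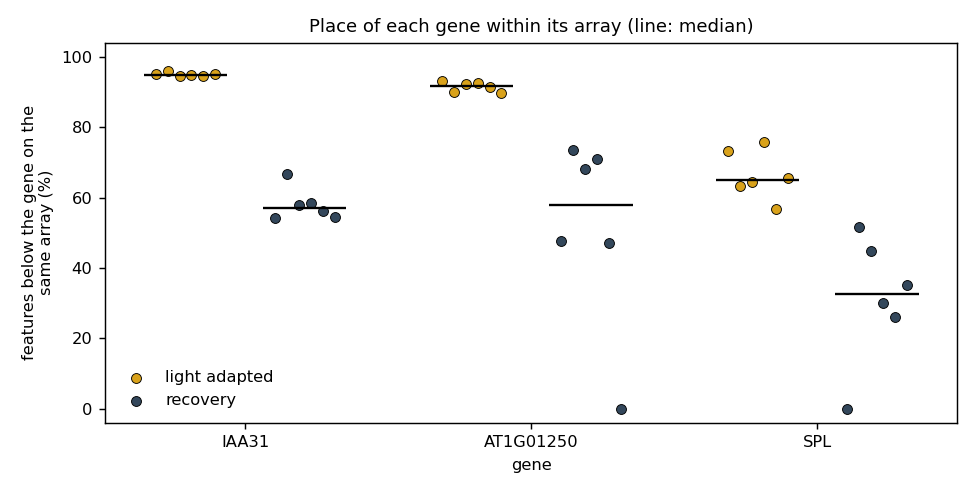
Share of the other features on the same array that lie below IAA31, AT1G01250 and SPL, in percent, on 6 light-adapted and 6 recovery arrays, with the median as a line. IAA31 moves from 94.4% to 95.9% down to 54.3% to 66.6%, and a zero in recovery puts AT1G01250 and SPL at 0% on 1 array each.

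The extreme light-adapted values of the regulators sat on arrays with a high or low overall signal. Array 4 held the highest value of all 3 genes, and it also had the highest summed intensity of the group. Array 5, with the lowest sum, held the lowest value of IAA31 and SPL, and array 6 that of AT1G01250. The coefficient of variation of IAA31 over light-adapted arrays was 15% for the deposited intensity and 8.50% after division by the array sum. That of AT1G01250 was 31.6% and 19.2%, and that of SPL was 43.5% and 33.5%. In recovery the same division did not lower the variation of IAA31, at 22.1% and 24.3%, or that of SPL, at 106% and 107%, while for AT1G01250 it was 77.2% and 73.6%.

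Among 452 features with 1 gene that could be fitted, 2 had a larger negative difference than IAA31 after quantile normalization, 12 a larger one than AT1G01250 and 19 a larger one than SPL. On the deposited scale the counts were 2, 19 and 13. Among these features AT1G01250 and SPL thus changed order with the scale, while IAA31 kept its place. Over all 2364 fitted features the counts were 9, 59 and 88 after quantile normalization and 15, 87 and 69 on the deposited scale. The genes were picked by this contrast, so their places are a description.

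**Figure D4:**
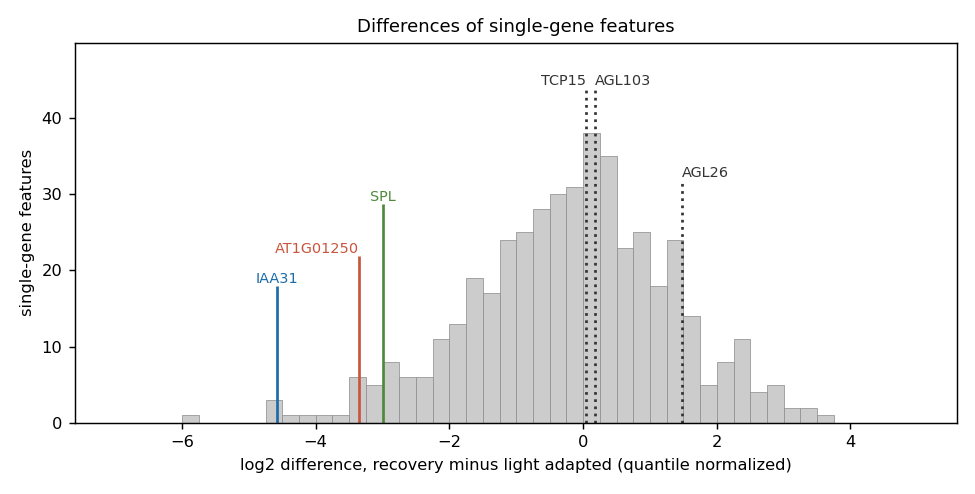
Histogram of the log2 difference, recovery minus light adapted, after quantile normalization, for fitted features with 1 gene. Solid lines mark IAA31 at -4.59, AT1G01250 at -3.35 and SPL at -3.0. Dotted lines mark the fitted genes listed as transcription regulators by symbol prefix alone, AGL103 at 0.18, AGL26 at 1.48 and TCP15 at 0.05.

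The features most like each regulator were found by the root-mean-square distance between log2 profiles over the arrays, each profile centred on its own mean, among features with 1 gene and at least 10 arrays above 0 in common. IAA31 was nearest to AT2G46630, at a distance of 0.281 over 12 arrays, against a median of 2.42 over 420 features compared. The mean intensity of AT2G46630 was 7.64 ± 1.19 in light-adapted plants and 0.329 ± 0.0905 in recovery (SD, n = 6 each). Next came AT2G36480 at 0.741, with 1.71 ± 0.240 in light-adapted plants and 0.0144 ± 0.0125 and 2 zeros in recovery, and AT5G26850 at 0.779, and AT1G01250 was the fourth nearest at 0.784. SPL was the 18th, at 1.2.

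AT1G01250 was nearest to AT4G07670 at 0.629 over 10 arrays, AT5G65220, which encodes the chloroplast ribosomal protein L29, at 0.645 over 11, and AT1G73470 at 0.687 over 11, against a median of 1.89 over 364 features. SPL was nearest to AT3G02690 at 0.610 and AT5G38310 at 0.855, with AT1G01250 next at 0.899, each over 10 arrays, with a median of 1.96 over 363 features. The mean intensity of AT3G02690 was 0.150 ± 0.0476 in light-adapted plants and 0.00864 ± 0.00961 in recovery, with 1 zero (SD, n = 6 each). The group difference by which the regulators were chosen enters all these distances, and they say nothing of common control.

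**Figure D5:**
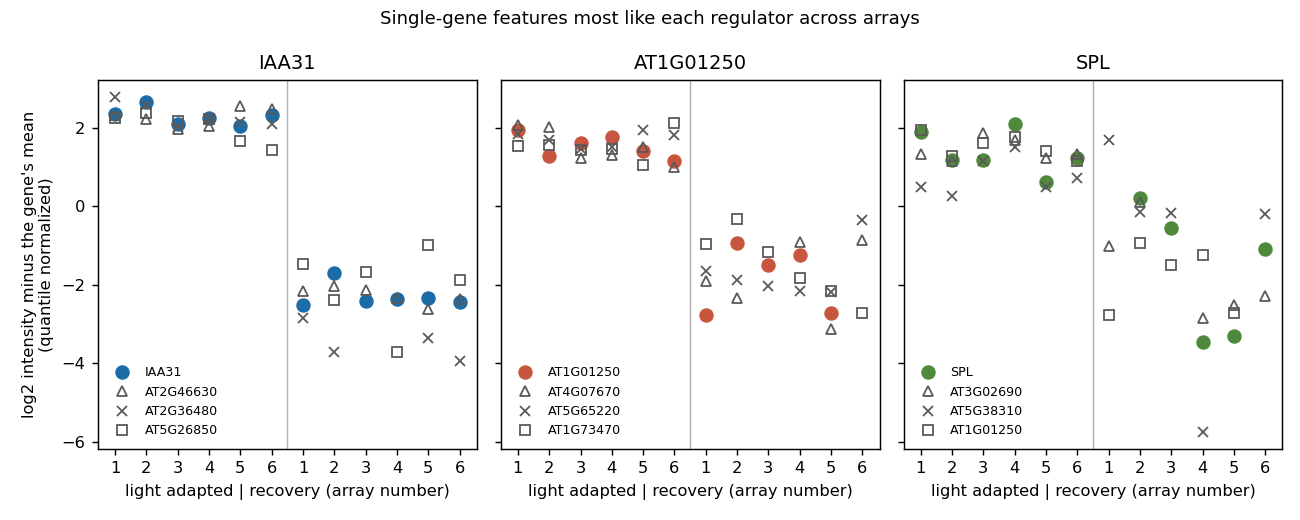
Quantile-normalized log2 intensity minus the gene's own mean on each light-adapted and recovery array for IAA31, AT1G01250 and SPL (filled) and the 3 features with 1 gene nearest to each (open or crossed symbols). Arrays at 0 have no point. IAA31 and AT2G46630, at a distance of 0.281, nearly coincide, whereas the features nearest to SPL scatter in recovery.

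Features with 1 gene were also searched for the gene families around the regulators. None of 65 listed loci of auxin response, which cover Aux/IAA and auxin response factors, receptors, corepressors, transport and conjugation, had one. The same held for the 29 loci listed for spore formation and SPL partners. By symbol and synonym, 0 AP2/ERF genes other than AT1G01250 were found, but that search misses family members named only by their locus. A further feature is annotated with IAA31 together with other Aux/IAA genes, so no gene can be named from it. Its intensity was 0.121 ± 0.0501 in light-adapted plants and 0.0330 ± 0.0304 in recovery (SD, n = 6 each), with 1 zero in recovery. It was lower in recovery in 6 of 6 pairs of deposited values, and limma called it there, at -1.85 ± 0.499 (SE, adjusted p = 0.0108), on a scale where 36.8% of all fitted features were called lower. After quantile normalization it was not called, at -0.71 ± 0.509 (limma adjusted p = 0.301), and the groups overlapped. The feature of IAA31 alone was at -4.59 on that scale, with a mean intensity of 1.90 in light-adapted plants. The features thus differed in level and in size of difference. Their pairing with genes rests on the platform annotation, and which transcript gives either signal was not tested.

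A list of other transcription regulators, taken by the prefix of their symbol alone, had 4 features with 1 gene. They were AGL103 and AGL54, named after the MADS-box factor AGAMOUS, AGL26, which carries the same name series, and TCP15, a TCP factor involved in growth. A symbol does not show what a gene encodes, and whether AGL26 encodes a transcription regulator was not checked. Of the 3 that could be fitted, 1 was called higher, 0 were called lower and 2 were not called, where 18.5% of all features were called higher and 18.4% lower. Their median difference was 0.18, against -0.04 over all features. Of the 3, 1 had an unadjusted limma p under 0.05.

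AGL26 rose in recovery. Its deposited intensity ran from 0.0680 to 0.382 with a median of 0.172 in light-adapted plants and from 0.165 to 0.530 with a median of 0.317 in recovery, and the groups overlapped. After quantile normalization the difference was 1.48 ± 0.375 (SE, limma adjusted p = 0.00814), with 6 of 6 recovery arrays above the light-adapted mean, and 5 of 6 pairs were higher on the deposited scale. Without normalization the call was lost, at 0.85 (limma adjusted p = 0.125), and with arrays 1 and 2, 3 and 4, and 5 and 6 averaged, where the difference was the same, at 1.48, with a larger SE of 0.447 (limma adjusted p = 0.0678). It was also lost without arrays 5 and 6 of both groups, at 1.02.

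AGL103 had mean intensities of 0.253 ± 0.155 and 0.146 ± 0.0334 and TCP15 of 0.182 ± 0.050 and 0.115 ± 0.0660 in light-adapted and recovery arrays (SD, n = 6 each). Neither was called after quantile normalization, at 0.18 (limma adjusted p = 0.717) and 0.05 (limma adjusted p = 0.930). Their signs turned on the deposited scale, at -0.64 and -0.80, without a call, where the median over all fitted features was -0.82. On that scale AGL103 was lower in 6 of 6 pairs and TCP15 in 5 of 6. AGL54 was at 0 on 3 light-adapted arrays and on all 6 recovery arrays, so it was not fitted, and its highest light-adapted intensity was 0.223. The prefixes miss regulators with other symbols, such as LAS (AT1G55580), a GRAS-family regulator of side shoot formation that was singled out after its values were seen. LAS is a picked example, and how the missed regulators moved as a set was not examined. The mean intensity of LAS was 0.128 ± 0.0130 in light-adapted plants and 0.0358 ± 0.0259 in recovery (SD, n = 6 each), lower in 6 of 6 pairs. Its difference was -1.65 ± 0.866 (SE) after quantile normalization and -2.69 without normalization. The fit in limma did not call it on the first scale and called it on the second, where 36.8% of all fitted features were called lower. Because LAS was picked by its values, these are a description and not a test.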

How the data were processed

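The authors deposited 1 table of array intensities, with 3439 features in rows and the 12 samples, of 1 channel each, in columns. The sources used here do not give the scanner, background correction, normalization or the meaning of the ceiling of 100. The scale was read from the values as linear, and centring stays unknown. Gene names came from the supplied platform annotation. Of 692 features with 1 gene, 690 matched a reference table of assembly TAIR10.1 by gene identifier. Coordinates and sequences were not used here. The number of arrays limits the precision.

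Zeros were set to missing, log2 intensities were quantile normalized, and features with at least 4 values above 0 per group entered limma 3.58.1 under R 4.3.3 (lmFit, eBayes, Benjamini-Hochberg adjustment, two-sided), which was tested on simulated data. Figures used matplotlib 3.10.9. Alternatives changed the scaling, the zeros (a pseudocount of 0.01), the filter, the pairing and the arrays used. The numbers were taken to pair the arrays from the values, not the labels: same-numbered arrays deviated together, with r from 0.108 to 0.193 in the 6 pairs over 1429 features. The reference table has no gene descriptions, so regulators were taken by symbol prefix, and AP2/ERF genes by symbol and synonym. Named genes are the 3 regulators, the 3 nearest profiles of each and the fitted genes of the auxin, AP2/ERF and spore formation lists and called genes of the regulator list. AGL103, TCP15, AGL54, LAS and the leaf markers are named beyond that rule. Members and lists were chosen with earlier results of these data known.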

Additional observations from a re-analysis of the deposited data

Results flagged for a closer look

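The recovery intensity of IAA31 on array 2, 0.0782, stood apart from the other 5 recovery arrays, with a gap to the next value of 0.663 of the group's range, above Dixon's critical value for 6 arrays. In all, 12 groups of 6 arrays were examined in this way, and chance alone marks such a value in about 5% of groups. IAA31 stayed far below its light-adapted level on this array. Pair 2 also gave the smallest ratios of AT1G01250 and SPL, at 6.20 and 4.12, so the smaller difference there was not peculiar to IAA31.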

How the results depend on the processing

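IAA31, AT1G01250 and SPL stayed lower in recovery under each alternative that gave a value. The difference of IAA31, -4.59, was -5.11 on the deposited scale, -4.12 after median centring, -4.26 with zeros kept and a pseudocount of 0.01, and -5.12 with each array divided by its sum, an alternative chosen after seeing the data. That of AT1G01250 stayed between -3.90 and -2.87, within the spread over pairs. That of SPL moved more, to -4.0 on the deposited scale and -2.19 with the pseudocount, also within its wide spread. Leaving out 1 array gave -4.67 to -4.50 for IAA31, -3.54 to -3.09 for AT1G01250 and -3.44 to -2.52 for SPL. A replicate block gave differences of -4.59, -3.43 and -2.89 in that order, and 832 features were called in place of 873. The block changed no call named here. Calls numbered 781 to 858 with 1 array left out and 405 with means of arrays 1 and 2, 3 and 4, and 5 and 6. The 1 call among genes taken by symbol prefix, AGL26, was lost, leaving 0, on the deposited scale and after division by the sum. It was also lost with those means and without arrays 5 and 6, and leaving out 1 array kept the count at 1. AGL103 turned to -0.64 on the deposited scale, -0.65 after division by the sum, and -0.13 without arrays 1 and 2, and ran from -0.035 to 0.44 with 1 array left out. TCP15 turned to -0.80, -0.81 and, without arrays 3 and 4, -0.44, and ran from -0.11 to 0.19 with 1 array left out. The cause was not tested. AT1G01250 and SPL have no value where all 6 arrays must be above 0.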
